A study of Mus musculus with 32 samples.

Results

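The upper small intestine was sampled in 6 of the 32 libraries of the series, as 3 pairs at postnatal days 1, 5 and 15 (P1, P5 and P15). They were taken as every library whose label gives the top part of the intestine, and each pair held 1 percc1-/- and 1 wild-type library. The percc1-/- mice were homozygous for a 1512 bp deletion on chromosome 17, in which a loxP site stands in place of the removed bases after Cre recombinase took out the neomycin cassette. The targeted cells were of the W4/129S6 embryonic stem line, and all 6 libraries came from mice labelled as a mixed 129SvEv and C57BL/6 background. The top part is the upper of 2 equal pieces into which the emptied intestine was cut, so it held mucosa, muscle and nerve together, and its upper border with stomach and pancreas was set by dissection. The labels do not say that the libraries came from separate animals, litters or days, so the spread between pairs may be partly technical. Total RNA was sequenced after removal of ribosomal RNA, and the comparison asks which transcripts differ without Percc1 in the upper small intestine.

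Enteroendocrine cells are rare epithelial cells that secrete peptide hormones in response to food. Those of the upper small intestine are known for glucose-dependent insulinotropic polypeptide (Gip), cholecystokinin (Cck), secretin (Sct) and somatostatin (Sst), while glucagon-like peptides from Gcg, neurotensin (Nts) and peptide YY (Pyy) are more typical of the lower part. The hormones act on insulin secretion, gall bladder and pancreas, stomach emptying and appetite, and the cells arise from crypt progenitors under the transcription factor Neurog3.

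Levels below are FPKM values, fragment numbers scaled to transcript length and to the library's mapped fragments, as the authors deposited them, given in the order P1, P5 and P15. Differences are percc1-/- minus wild type on the scale of log2(rescaled FPKM + 1), where 1 unit is a doubling of FPKM + 1, which understates changes of genes at low levels. The 6 libraries held an estimated 6730000 to 11600000 fragments, and the highest level of any named gene in a library lay between 85.1 and 116 FPKM. Only 24 to 38 genes per library exceeded 50 FPKM, so differences of the most abundant genes may be compressed. Among the 4746 genes that averaged 10 FPKM or more, 6 had a 0 in at least 1 of the 6 libraries. A 0 is therefore read as listed at 0 and not as absence.

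The deleted gene could not be followed by its symbol, since no record of the 6 tables carries the name Percc1. The positions that the labels state for the deletion, chr17:25175032-25176543 on mm9, hold 0 unnamed records in each of the 6 libraries. They lie within Ift140 in the mm9 annotation, whereas the same numbers read on GRCm38 lie in Percc1, and which build was meant could not be settled. Between Clcn7 and BC003965 (chr17:25299050-25321505, mm9) no unnamed record was found either. The genotype of these libraries was thus not checked by the targeted transcript. None of the 17 tested genes in a list of locus neighbours passed the test. The groups did not overlap for 4 of these 17 in the lower and 2 in the higher direction, against 5.34% and 3.7% of all tested genes. That list is not the same set as the genes within 200 kb of the stated positions. Of the latter, Clcn7, Eme2, Fahd1, Hagh and Tmem204 were lower without overlap, and Telo2 and Unkl were higher without overlap. The other tested genes of that set overlapped. Eme2 was separate only by 9.938 FPKM in the P15 percc1-/- library against 9.940 FPKM in the P15 wild-type library. Hagh, which encodes glyoxalase II, stood at 18.8, 19.7 and 17.2 FPKM in the wild-type libraries and 12.7, 10.9 and 14.02 FPKM in the percc1-/- libraries, and its 2 groups did not overlap. Clcn7, a lysosomal chloride transporter, stood at 17.004, 13.1 and 10.1 FPKM in the wild-type libraries and 8.34, 9.88 and 8.47 FPKM in the percc1-/- libraries, again with no overlap between the groups.

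Markers of the neighbouring organs differed within pairs, and not in the same way at each stage. At P1 the percc1-/- library held gastric transcripts that its wild-type partner lacked. The proton pump subunit Atp4a stood at 0.185 FPKM in the wild-type and 29.8 FPKM in the percc1-/- library, Atp4b at 0.241 FPKM in the wild-type and 25.1 FPKM in the percc1-/- library and Gif, the intrinsic factor gene, at 0.0417 FPKM in the wild-type and 11.4 FPKM in the percc1-/- library. For scale, Atp4a stood at 37.2 FPKM in the wild-type and 18.5 FPKM in the percc1-/- library of whole stomach at the same stage. Over the list of stomach genes, 13 of 17 tested members were more than 1 log2 unit higher in the percc1-/- library at P1, against 3.09% of all 12936 tested genes. At P5 the difference ran the other way. The gastrokine Gkn3 stood at 20.5 FPKM in the wild-type and 0.283 FPKM in the percc1-/- library, the trefoil peptide Tff1 at 23.4 FPKM in the wild-type and 1.53 FPKM in the percc1-/- library, the gland trefoil peptide Tff2 at 32.8 FPKM in the wild-type and 0.393 FPKM in the percc1-/- library and the gland mucin Muc6 at 16.6 FPKM in the wild-type and 0.6003 FPKM in the percc1-/- library. Here 9 of 17 stomach genes and 4 of 7 genes of duodenal glands and antrum were more than 1 unit lower in the percc1-/- library, against 1.37% of all tested genes. At P15 none of the 17 stomach genes differed by more than 1 unit in either direction, where 1.7% of all tested genes were that much higher and 1.47% lower. The stomach list summed to 136.8, 107.4 and 125.3 FPKM in the wild-type libraries and to 389.5, 27.8 and 136.9 FPKM in the percc1-/- libraries, with median differences of 1.29, -1.24 and -0.10 against 0.01, 0.00 and 0.00 over all tested genes. Of its defining markers, Kcnq1 was listed at 0 in all 6 libraries.

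Most pancreatic transcripts stood lower in the percc1-/- than in the wild-type libraries of P1 and P5, some of them near 0. Chymotrypsin-like elastase Cela2a stood at 25.6, 25.03 and 0 FPKM in the wild-type libraries and 0, 0 and 0 FPKM in the percc1-/- libraries. Carboxypeptidase A1 (Cpa1) stood at 10.9, 17.5 and 0.921 FPKM in the wild-type libraries and 0.248, 0.391 and 2.09 FPKM in the percc1-/- libraries, and the bile-salt lipase Cel at 17.2, 34.5 and 1.703 FPKM in the wild-type libraries and 0.302, 1.18 and 8.67 FPKM in the percc1-/- libraries. At P1 and at P5, 24 of 31 tested exocrine genes were more than 1 unit lower in the percc1-/- library, whereas at P15 none was lower by that much and 4 were higher. Over all tested genes 2.09% were that much lower at P1 and 1.37% at P5, and 1.7% that much higher at P15. At P5 none of the 31 was that much higher, against 1.07% of all tested genes. Not every exocrine gene took part, and Reg1 differed by -0.03 at P1 and -0.30 at P5, and the trypsin inhibitor Spink3 by -0.23 and 0.08. The summed level of the exocrine list was 416.6, 501.9 and 161.5 FPKM in wild type and 172.6, 140.3 and 233.2 FPKM in percc1-/-, with median differences of -2.23, -2.62 and 0.36. Members of the trypsin family are near-identical copies, so that their single levels are uncertain. The islet genes followed the same pattern. Ins2 stood at 6.43, 9.97 and 1.16 FPKM in the wild-type libraries and 0, 0.857 and 1.11 FPKM in the percc1-/- libraries, and Ins1 at 2.26, 3.62 and 0.278 FPKM in the wild-type libraries and 0.165, 0.496 and 0.352 FPKM in the percc1-/- libraries. The median over the 3 tested islet genes was -1.46, -1.56 and 0.08. Fabp6, an ileal bile acid carrier and thus a marker of the far lower intestine, stood at 0, 0 and 0.209 FPKM in wild type and at 16.9, 0.580 and 0.185 FPKM in percc1-/-. Of 9 tested distal small intestine genes, 4 were over 1 unit higher at P1, 0 at P5 and 2 at P15. Over all tested genes 3.09%, 1.07% and 1.7% were. None of the 9 was that much lower in any pair. Slc5a8, outside that list, stood at 0.0479, 0.348 and 0.0909 FPKM in upper wild type and 2.66, 2.47 and 0.942 FPKM in upper percc1-/-. In lower wild type it stood at 4.97 to 24.2 FPKM. Liver's Alb stayed at or below 1.76 FPKM in all 6 libraries. The P15 pair was thus the one in which none of the stomach genes and none of the exocrine genes was over 1 unit lower in percc1-/-, and the values of that pair are given beside the results that follow.

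**Figure D1:**
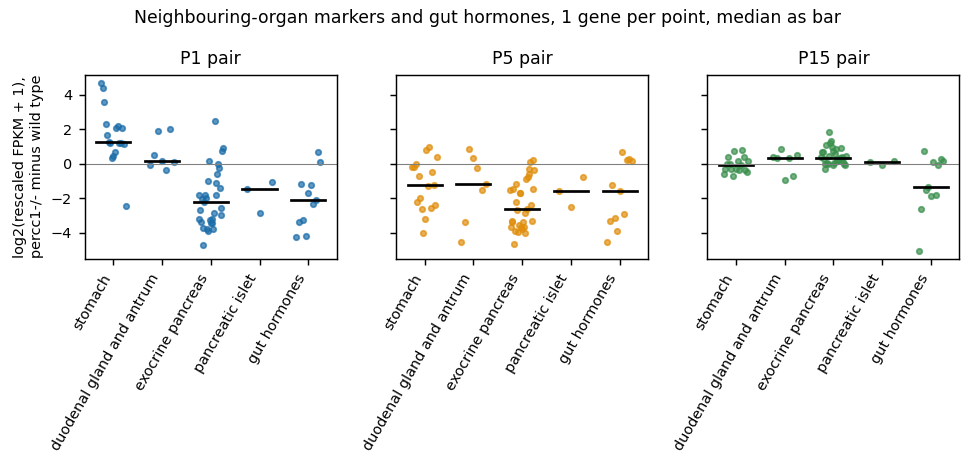
Differences on the log2(rescaled FPKM + 1) scale for tested members of 5 gene lists, 1 panel per pair and 1 point per gene, with the list's median as a bar. Stomach genes have a median of 1.29 at P1 and -1.24 at P5, exocrine genes of -2.23 at P1 and -2.62 at P5, and at P15 the hormone median is -1.37, a value that becomes -0.28 when unnamed records over Ghrl are added.

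Gip was the only hormone gene that passed the test, and it was lower in percc1-/-. It stood at 24.99, 25.6 and 30.3 FPKM in the wild-type libraries and 0.345, 0.0865 and 0 FPKM in the percc1-/- libraries, so that its groups were far apart and 3 of 3 pairs agreed in direction. The fall was -4.61 ± 0.20 log2 units (estimate ± SE, 3 pairs, adjusted p = 0.0164 by limma over 12936 genes). Behind these levels lay an estimated 246, 213 and 210 fragments in wild type and 4, 1 and 0 in percc1-/-. Across all genes only 2 of 12936 passed, both lower (0.0155% of those tested), and the other was Unc50. At an unadjusted p under 0.05 by limma, 453 genes were higher (3.5%) and 353 were lower (2.73%). An exact test over 3 pairs could not go below p = 0.25, so single genes rest on the limma fit. Without the P1 or the P5 pair 0 genes passed (Gip adjusted p = 0.0597 and 0.102), and without the P15 pair 22 did, pancreatic genes among them. In whole tissue, fewer hormone cells and less RNA per cell cannot be told apart.

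Gip led a group of hormone genes that all stood lower in percc1-/-. Over all genes, 11 were lower by more than 1 log2 unit in every pair (0.085% of those tested) and 9 were higher (0.0696%). Of those 11, 6 were gut hormones: Gip, Cck, Sst, Gcg, Nts and Ghrl. Cck stood at 17.3, 15.8 and 9.41 FPKM in the wild-type libraries and 0.735, 0.573 and 0.732 FPKM in the percc1-/- libraries, -3.12 ± 0.21 log2 units on average with an adjusted p of 0.0789 by limma, and of 0.00872 when stage was not fitted as a block. Sst stood at 13.01, 11.3 and 11.2 FPKM in the wild-type libraries and 1.78, 0.562 and 2.51 FPKM in the percc1-/- libraries. Its average difference was -2.35 ± 0.24 (limma adjusted p = 0.256). For each of these 6 genes the highest percc1-/- level lay below the lowest wild-type level, which held for 5.34% of all tested genes. The 6 were picked by their differences in these same pairs, so the separation is no separate support.

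Gcg, the precursor of glucagon-like peptides, stood at 4.51, 7.499 and 3.26 FPKM in the wild-type libraries and 0.667, 1.698 and 0.197 FPKM in the percc1-/- libraries, a difference of -1.72 ± 0.16 (limma adjusted p = 0.223). Nts stood at 11.1, 9.78 and 1.92 FPKM in the wild-type libraries and 0.237, 0.143 and 0.0608 FPKM in the percc1-/- libraries, and here the wild-type level itself was lower at P15 than at P1 or P5. Ghrl, the precursor of the appetite hormone ghrelin, stood at 17.4, 14.4 and 7.11 FPKM in the wild-type libraries and 0, 0 and 2.21 FPKM in the percc1-/- libraries. Unnamed records overlap the span of the Ghrl gene, at 6.29, 4.11 and 9.30 FPKM in wild type and 7.60, 3.55 and 11.4 FPKM in percc1-/-. They were taken by position on either strand, and whether their reads come from Ghrl was not tested. With them added, Ghrl stood at 23.7, 18.5 and 16.4 FPKM in wild type and at 7.60, 3.55 and 13.6 FPKM in percc1-/-. The P15 pair was then close, with a difference of -0.28 log2 units. Counted that way, Ghrl was no longer over 1 unit lower in every pair, and the genes that were numbered 10, with 5 hormones among them. Ghrl and Sst are also hormones of the stomach, and Sst, Gcg and Ghrl of the pancreatic islet. The part of the stomach and pancreas difference in these 3 was not tested. In the P15 pair, where stomach and exocrine medians were -0.10 and 0.36, Sst differed by -1.83, Gcg by -1.88, Nts by -1.505, Ghrl by -1.37 (-0.28 with the unnamed records over it), Cck by -2.64 and Gip by -5.04 units.

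The 5 remaining tested hormones were not lower in all 3 pairs. Sct stood at 16.9, 14.2 and 3.25 FPKM in the wild-type libraries and 6.96, 5.203 and 6.23 FPKM in the percc1-/- libraries, lower at P1 and P5 and higher at P15. Pyy stood at 5.13, 5.83 and 2.43 FPKM in the wild-type libraries and 1.57, 9.35 and 2.74 FPKM in the percc1-/- libraries, and Insl5, a peptide of distal endocrine cells, at 9.79, 4.83 and 0.354 FPKM in the wild-type libraries and 1.47, 5.33 and 0.314 FPKM in the percc1-/- libraries. Both overlapped between the groups. Tac1, the substance P precursor made by neurons and enterochromaffin cells, stood at 4.91, 4.65 and 4.36 FPKM in the wild-type libraries and 8.37, 5.44 and 5.47 FPKM in the percc1-/- libraries, higher in 3 of 3 pairs without passing the test. Vip, a neuronal peptide, stood at 5.27, 5.09 and 7.93 FPKM in the wild-type libraries and 5.65, 5.55 and 9.21 FPKM in the percc1-/- libraries, where the groups overlapped. Gast and Iapp were under the level filter, with Iapp at 2.39, 2.34 and 0.465 FPKM in the wild-type libraries and 0.161, 0.323 and 0.3096 FPKM in the percc1-/- libraries. Iapp, the islet amyloid gene, was lower in 3 of 3 pairs with no overlap, at low levels. Of the 14 listed hormone genes, 11 were tested, 6 were lower in all 3 pairs and 2 were higher. Over all tested genes 12.8% were lower and 14.1% were higher in all 3 pairs. The list's median differences were -2.10, -1.58 and -1.37. The median at P15 is the value of Ghrl itself, and with the unnamed records added the medians were -1.70, -1.58 and -0.28.

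**Figure D2:**
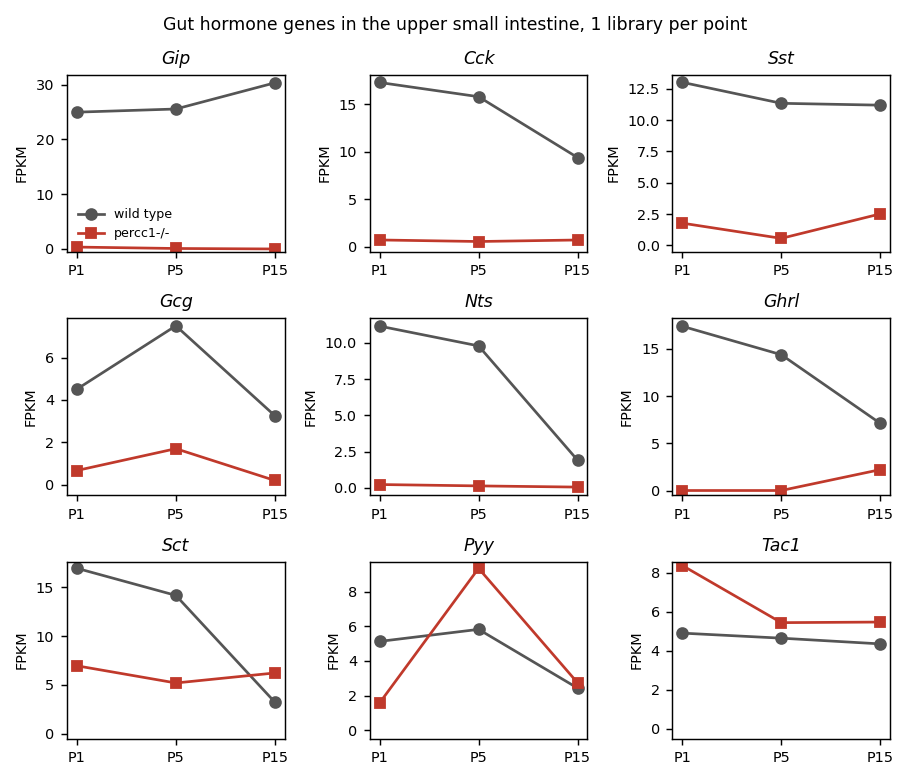
Deposited FPKM of 9 gut hormone genes by stage, with 1 library per point, grey circles for wild type and red squares for percc1-/-, and lines joining the stages of a genotype. Gip runs from 24.99 to 30.3 FPKM in wild type and stays at or below 0.345 FPKM in percc1-/-, while the lines of Sct and Pyy cross.

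The start regions of the 5 hormone genes with the largest change reached in all 3 pairs are shown for what they have in common. Each window lies mostly before and partly after the annotated start, on GRCm38.p6 as RefSeq gives it, and not on the build of the levels. Capitals mark E-boxes, CANNTG, the letters bound by basic helix-loop-helix factors such as Neurod1, and matches to TGACG or its reverse complement CGTCA, the core of the cyclic AMP response element TGACGTCA.
Gip (chr11:96024295-96024594, + strand): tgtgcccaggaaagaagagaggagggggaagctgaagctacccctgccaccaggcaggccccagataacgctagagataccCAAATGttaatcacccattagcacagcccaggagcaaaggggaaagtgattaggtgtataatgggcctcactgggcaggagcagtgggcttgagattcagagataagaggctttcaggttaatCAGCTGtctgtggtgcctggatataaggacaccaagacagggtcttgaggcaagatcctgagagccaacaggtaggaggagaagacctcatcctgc
Cck (chr9:121495645-121495944, - strand): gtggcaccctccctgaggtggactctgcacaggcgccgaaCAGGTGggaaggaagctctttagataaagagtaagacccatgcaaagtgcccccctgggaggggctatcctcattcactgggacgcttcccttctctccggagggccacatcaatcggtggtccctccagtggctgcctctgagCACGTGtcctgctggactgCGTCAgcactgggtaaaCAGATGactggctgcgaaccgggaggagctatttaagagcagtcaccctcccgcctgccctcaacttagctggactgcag
Sst (chr16:23890795-23891094, - strand): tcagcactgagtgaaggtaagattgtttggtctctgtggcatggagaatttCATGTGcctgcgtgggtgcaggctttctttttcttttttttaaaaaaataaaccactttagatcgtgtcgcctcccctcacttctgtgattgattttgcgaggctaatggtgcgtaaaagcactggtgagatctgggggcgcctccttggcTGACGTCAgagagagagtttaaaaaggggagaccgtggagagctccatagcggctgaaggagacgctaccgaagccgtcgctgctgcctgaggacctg
Gcg (chr2:62483604-62483903, - strand): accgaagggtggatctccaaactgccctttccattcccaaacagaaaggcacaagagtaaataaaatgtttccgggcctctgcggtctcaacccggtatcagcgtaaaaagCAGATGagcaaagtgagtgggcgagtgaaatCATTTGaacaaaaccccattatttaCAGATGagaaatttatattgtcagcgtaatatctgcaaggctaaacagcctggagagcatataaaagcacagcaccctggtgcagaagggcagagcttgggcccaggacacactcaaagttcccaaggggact
Nts (chr10:102490369-102490668, - strand): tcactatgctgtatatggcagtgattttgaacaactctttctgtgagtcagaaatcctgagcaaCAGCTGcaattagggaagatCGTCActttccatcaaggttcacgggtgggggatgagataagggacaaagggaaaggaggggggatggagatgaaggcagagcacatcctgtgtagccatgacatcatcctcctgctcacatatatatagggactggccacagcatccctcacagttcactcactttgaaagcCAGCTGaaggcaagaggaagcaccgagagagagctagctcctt
E-boxes, searched on both strands, numbered 2 in Gip, 3 in Cck, 1 in Sst, 3 in Gcg and 2 in Nts, and 72.3% of 32851 promoters of this length hold at least 1. The full element TGACGTCA stood only in Sst among these 5, and 1.79% of all promoters hold it. Since that element contains the core on both strands, Sst counts 2 cores, against 1 each in Cck and Nts, and 20.8% of promoters hold one. The GATA letters AGATAA, on either strand, occurred 2 times in Gip and 1 time each in Cck and Nts, and 11.2% of promoters hold them. The matches describe these windows and say nothing of which factor acts there.

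Genes that hormone cells share stood differently from the hormones. Some of them, such as Scg2 and Snap25, are also in the list of enteric neuron genes, and the pieces held nerve. The part of neurons in these levels was not tested. Chga, the granule protein chromogranin A, stood at 11.9, 11.96 and 12.7 FPKM in the wild-type libraries and 20.5, 17.9 and 17.4 FPKM in the percc1-/- libraries, higher in 3 of 3 pairs with no overlap (0.60 ± 0.13, limma adjusted p = 0.764). Chgb, its relative chromogranin B, stood at 17.97, 17.5 and 15.9 FPKM in the wild-type libraries and 18.2, 17.6 and 19.3 FPKM in the percc1-/- libraries, with overlapping groups. Tph1, the enzyme that starts serotonin synthesis in enterochromaffin cells, stood at 4.24, 4.67 and 8.57 FPKM in the wild-type libraries and 10.7, 8.21 and 14.2 FPKM in the percc1-/- libraries, with differences of 1.18, 0.78 and 0.64. Pcsk1, which cleaves prohormones, stood at 2.94, 2.68 and 3.37 FPKM in the wild-type libraries and 2.699, 2.92 and 4.85 FPKM in the percc1-/- libraries. Of 18 tested granule and amine genes none passed the test, 4 were higher and 2 were lower in all 3 pairs, and the median differences were 0.02, 0.09 and 0.07. Over all tested genes 14.1% were higher and 12.8% lower in all 3 pairs. These shares are also the background of the transcription factor and receptor counts that follow. Among 9 tested endocrine transcription factors none passed, and 3 were higher in all 3 pairs, Foxa1, Etv1 and Lmx1a. Foxa1, a forkhead factor of gut epithelium, stood at 1.78, 2.07 and 2.18 FPKM in the wild-type libraries and 6.31, 2.69 and 3.04 FPKM in the percc1-/- libraries. Of 7 tested nutrient-sensing receptors, none passed and 2 were higher in all 3 pairs.

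Beyond the hormones, Unc50 was the second gene to pass (limma adjusted p = 0.0164). It stood at 13.4, 17.8 and 10.7 FPKM in the wild-type libraries and 0, 0 and 0 FPKM in the percc1-/- libraries, and a group that is listed at 0 throughout gives no fold. Unc50, a membrane protein of the Golgi, has a 0 in 6 of the 7 small intestine libraries labelled percc1-/- and in 1 of the 7 labelled wild type, the latter from the lower part at P1. In the 18 libraries outside the small intestine it lay between 8.58 and 18.2 FPKM in both genotypes. Whether these zeros are failed estimates was not tested, and in the fit over all 14 small intestine libraries Unc50 had an adjusted p of 0.787.

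Ubd, an inducible ubiquitin-like modifier, stood at 3.13, 3.59 and 2.84 FPKM in the wild-type libraries and 0.239, 0.599 and 0.0765 FPKM in the percc1-/- libraries, and Cyp4a10, a fatty acid hydroxylase controlled by Ppara, stood at 3.72, 9.003 and 4.84 FPKM in the wild-type libraries and 0.698, 2.39 and 1.13 FPKM in the percc1-/- libraries. The differences of Cyp4a10 were nearly the same at each stage, -1.45, -1.48 and -1.49. Its limma adjusted p was 0.256. It was 0.0239 by limma when all 14 small intestine libraries shared 1 fit, the only 1 of 10 alternatives to call it. The 8 lower libraries of that fit held at most 1.001 FPKM of Cyp4a10. They vary little on this scale and may make the spread of the fit too small. Mcpt1, a chymase of mucosal mast cells, stood at 1.62, 3.67 and 4.95 FPKM in the wild-type libraries and 0.218, 0.655 and 0.419 FPKM in the percc1-/- libraries, and its relative Mcpt2 at 1.71, 3.47 and 1.83 FPKM in the wild-type libraries and 0.577, 0.5202 and 0.222 FPKM in the percc1-/- libraries. Neither overlapped between the groups, which held for 5.34% of all tested genes in the lower direction. Mcpt1 was picked by its differences in these same pairs, so its separation is no separate support. The 2 are similar in sequence and their reads may be shared. Of 6 tested mast cell genes, 3 were lower in all 3 pairs, against 12.8% of all tested genes, and 3 were higher at P1. Gbp1, an interferon-induced GTPase, and the unnamed locus A930019D19Rik complete the 12 genes with the largest decrease reached in all 3 pairs.

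No gene passed as higher. At the top of the 12 largest increases reached in all 3 pairs were Gm3448 at 0.379, 1.01 and 0.667 FPKM in the wild-type libraries and 11.2, 6.85 and 5.94 FPKM in the percc1-/- libraries, and Oit1, a secreted FAM3 family protein, at 2.45, 3.49 and 1.87 FPKM in the wild-type libraries and 12.7, 20.5 and 8.59 FPKM in the percc1-/- libraries. Oit1 differed by 2.02 ± 0.18 (limma adjusted p = 0.216) with groups well apart. Fkbp5, a co-chaperone gene induced by glucocorticoids, stood at 5.61, 2.897 and 2.58 FPKM in the wild-type libraries and 30.4, 8.46 and 10.3 FPKM in the percc1-/- libraries. It was highest in the P1 percc1-/- library, and its differences were 2.26, 1.35 and 1.65. Reg3b, an antimicrobial lectin of the epithelium, stood at 13.4, 13.3 and 6.59 FPKM in the wild-type libraries and 49.6, 27.2 and 35.2 FPKM in the percc1-/- libraries. Prss32, a serine protease, stood at 6.76, 7.98 and 3.33 FPKM in the wild-type libraries and 17.9, 16.2 and 9.96 FPKM in the percc1-/- libraries, Tspan1, a tetraspanin, at 5.44, 5.004 and 2.87 FPKM in the wild-type libraries and 15.3, 12.9 and 6.72 FPKM in the percc1-/- libraries, and Ppp3cc, a catalytic subunit of calcineurin, at 3.21, 2.62 and 2.42 FPKM in the wild-type libraries and 7.35, 6.103 and 6.55 FPKM in the percc1-/- libraries. The groups of each of these genes did not overlap, which held for 479 genes in the higher direction (3.7% of those tested) and for 691 in the lower (5.34%). These genes were picked by their differences in the same pairs, so their separation is no separate support. Also among these increases were S100a8, Mmp7, A930015D03Rik and Mir1192, the last a record named for a microRNA precursor, whose level is not that of the mature microRNA.

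**Figure D3:**
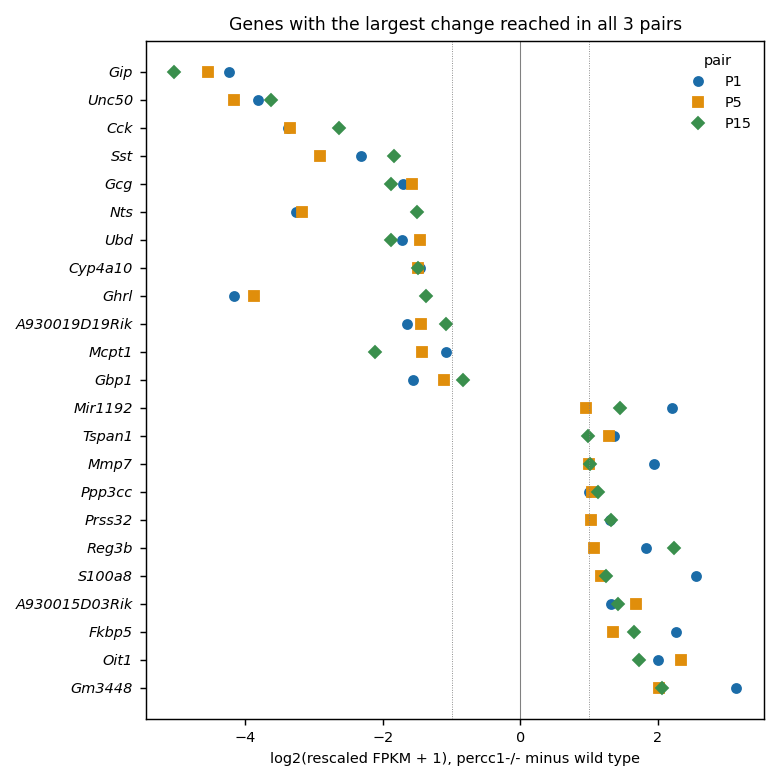
Difference per pair on the log2(rescaled FPKM + 1) scale for the 12 genes lowest and 11 of the 12 highest by the change that all 3 pairs reach, with blue circles for P1, orange squares for P5 and green diamonds for P15, and dotted lines at -1 and 1. Gip is lowest at each stage (-4.25, -4.54 and -5.04), and the values of Unc50 come from percc1-/- libraries listed at 0.

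Sterol synthesis genes stood higher as a group, with small differences. Of 19 tested members none passed the test, and 14 were higher and 0 lower in all 3 pairs, against 14.1% of all tested genes higher. The groups of 13 did not overlap, all in the higher direction, against 3.7% of all tested genes. The median differences were 0.24, 0.64 and 0.68. Sc4mol, a sterol methyl oxidase, stood at 11.1, 9.86 and 7.04 FPKM in the wild-type libraries and 22.3, 18.1 and 16.9 FPKM in the percc1-/- libraries, with differences of 0.96, 0.90 and 1.13 and a limma adjusted p of 0.3102. The mevalonate enzymes Mvd and Mvk stood at 5.403, 4.94 and 2.72 FPKM in the wild-type libraries and 7.697, 8.64 and 7.09 FPKM in the percc1-/- libraries for Mvd and at 3.81, 4.37 and 3.59 FPKM in the wild-type libraries and 5.82, 6.94 and 8.25 FPKM in the percc1-/- libraries for Mvk. Sqle, which makes squalene epoxide, stood at 12.6, 8.77 and 8.61 FPKM in the wild-type libraries and 15.001, 15.7 and 15.3 FPKM in the percc1-/- libraries. Insig1, which holds back the pathway, stood at 28.8, 20.7 and 14.6 FPKM in the wild-type libraries and 20.01, 38.9 and 35.5 FPKM in the percc1-/- libraries, lower at P1 and higher at P5 and P15. Hmgcs1 was listed at 0 in all 6 libraries.

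Acute phase and neutrophil genes stood higher in percc1-/- too, most at P1. None of 13 tested members passed, and 7 were higher and 0 lower in all 3 pairs, with median differences of 1.98, 0.77 and 0.48. Over all tested genes 14.1% were higher and 12.8% lower in all 3 pairs, which is also the background of the Reg and Paneth cell counts that follow. S100a8 and S100a9 encode the subunits of calprotectin. S100a8 stood at 1.47, 1.04 and 0.206 FPKM in the wild-type libraries and 13.3, 3.44 and 1.83 FPKM in the percc1-/- libraries, and S100a9 at 1.44, 0.951 and 0 FPKM in the wild-type libraries and 16.4, 3.11 and 0.735 FPKM in the percc1-/- libraries. The serum amyloid gene Saa3 stood at 0, 0.219 and 0.304 FPKM in the wild-type libraries and 13.6, 1.32 and 2.63 FPKM in the percc1-/- libraries, and Saa1 at 0, 0 and 0.133 FPKM in the wild-type libraries and 5.398, 13.2 and 0.0591 FPKM in the percc1-/- libraries, so that Saa1 was near 0 in the P15 pair. Complement C3 stood at 4.09, 3.07 and 6.51 FPKM in the wild-type libraries and 7.08, 9.55 and 14.9 FPKM in the percc1-/- libraries, with no overlap. The primary granule genes Mpo and Elane stayed at or below 0.0877 FPKM in all 6 libraries. Among 10 tested Reg lectins and antimicrobial genes, 4 were higher in all 3 pairs. Reg3g stood at 3.88, 13.2 and 5.01 FPKM in the wild-type libraries and 32.6, 17.5 and 23.4 FPKM in the percc1-/- libraries, and Reg4 at 18.3, 16.9 and 19.2 FPKM in the wild-type libraries and 27.6, 26.3 and 23.7 FPKM in the percc1-/- libraries. Of 12 tested Paneth cell genes, 5 were higher in all 3 pairs. Mmp7, the protease that activates defensins in mouse Paneth cells, stood at 1.53, 1.32 and 3.22 FPKM in the wild-type libraries and 8.65, 3.45 and 7.598 FPKM in the percc1-/- libraries. The defensin records, copies that share reads, were near 0 at P1 and P5 and appeared at P15. Defa26 stood at 0.0854, 0.0776 and 1.02 FPKM in the wild-type libraries and 0.262, 0.471 and 5.24 FPKM in the percc1-/- libraries.

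Interferon-induced genes stood lower, most at P1. Of 28 tested members none passed, 19 were lower and 0 higher in all 3 pairs, against 12.8% of all tested genes lower. The median differences were -1.33, -0.32 and -0.27. Ifit2 stood at 19.3, 22.2 and 12.7 FPKM in the wild-type libraries and 3.94, 13.1 and 6.34 FPKM in the percc1-/- libraries, Gbp3 at 8.2005, 5.99 and 4.88 FPKM in the wild-type libraries and 2.33, 3.06 and 2.66 FPKM in the percc1-/- libraries, Xaf1 at 19.6, 10.8 and 15.5 FPKM in the wild-type libraries and 5.58, 6.42 and 8.42 FPKM in the percc1-/- libraries and Usp18 at 9.05, 6.55 and 5.43 FPKM in the wild-type libraries and 5.03, 4.59 and 2.27 FPKM in the percc1-/- libraries. Gbp3, Xaf1 and Usp18 did not overlap between the groups, whereas Ifit2 did. Isg15, an ubiquitin-like modifier, stood at 17.1, 12.2 and 8.33 FPKM in the wild-type libraries and 4.48, 11.4 and 6.83 FPKM in the percc1-/- libraries, so that its P5 pair was level. Trim30d and Trim12a, members of a cluster of similar genes whose reads may be shared, stood near 0 in the percc1-/- libraries of P1 and P5 but not of P15. Trim30d stood at 9.62, 11.8 and 14.3 FPKM in the wild-type libraries and 0.157, 0.224 and 10.04 FPKM in the percc1-/- libraries, and Trim12a at 11.7, 12.97 and 18.5 FPKM in the wild-type libraries and 1.08, 1.399 and 12.8 FPKM in the percc1-/- libraries. Without the P1 pair the median of the list was -0.33. Leukocyte genes stood lower beside them: 10 of 17 tested were lower in all 3 pairs and 17 of 17 were lower at P1, with median differences of -0.46, -0.04 and -0.11. At P1, 6346 of all 12936 tested genes were lower. Their summed level was 116.6, 137.96 and 118.8 FPKM in wild type and 72.01, 123.995 and 109.5 FPKM in percc1-/-. The part of leukocyte content in the interferon list was not tested. H2-Eb1, an MHC class II chain, stood at 7.58, 11.9 and 10.6 FPKM in the wild-type libraries and 4.09, 9.42 and 9.97 FPKM in the percc1-/- libraries, and Coro1a, an actin regulator of leukocytes, at 7.16, 8.25 and 12.2 FPKM in the wild-type libraries and 6.602, 6.27 and 5.47 FPKM in the percc1-/- libraries.

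Epithelial lists showed small and mixed differences, and the counts below stand against 14.1% of all tested genes higher and 12.8% lower in all 3 pairs. The 19 tested genes of proximal identity had medians of -0.29, -0.12 and 0.29, and 0 were higher and 2 lower in all 3 pairs, Gata6 and Hes1. Gata6, a transcription factor of the upper gut, stood at 18.1, 24.3 and 24.3 FPKM in the wild-type libraries and 15.8, 17.4 and 21.01 FPKM in the percc1-/- libraries, with overlapping groups. Nutrient transporters had medians of -0.20, -0.08 and 0.47 over 25 tested genes. At P15 alone 23 of the 25 were higher in percc1-/-, against 17 of 25 lower at P1, and 3 were higher in all 3 pairs. Slc1a1, a glutamate transporter, stood at 0.568, 0.867 and 2.97 FPKM in the wild-type libraries and 2.06, 1.59 and 6.18 FPKM in the percc1-/- libraries. For the genes of fat absorption, 23 of 24 were higher at P15 and 15 of 24 lower at P1. Over all 12936 tested genes, 6483 were higher at P15 and 6346 lower at P1, and each of these pairs is 1 library against 1. Proliferation genes were lower in all 3 pairs for 10 of 20 tested members, by medians of -0.32, -0.07 and -0.11. The replication helicase subunit Mcm5 stood at 9.29, 12.5 and 10.4 FPKM in the wild-type libraries and 7.64, 7.8003 and 6.33 FPKM in the percc1-/- libraries, with no overlap, and the cyclin Ccnb2 at 9.07, 9.79 and 7.599 FPKM in the wild-type libraries and 6.36, 8.16 and 6.14 FPKM in the percc1-/- libraries. Goblet cell genes had 4 of 15 tested members higher and 2 lower in all 3 pairs. The 9 tested genes of distal identity had medians of 0.66, -0.19 and 0.11, and 3 were higher and 1 lower in all 3 pairs. Guca2a, the guanylin gene of gut epithelium and a member of that list, stood at 10.9, 14.1 and 7.64 FPKM in the wild-type libraries and 32.2, 17.5 and 18.3 FPKM in the percc1-/- libraries, with differences of 1.49, 0.38 and 1.14. No member of these lists passed the test.

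**Figure D4:**
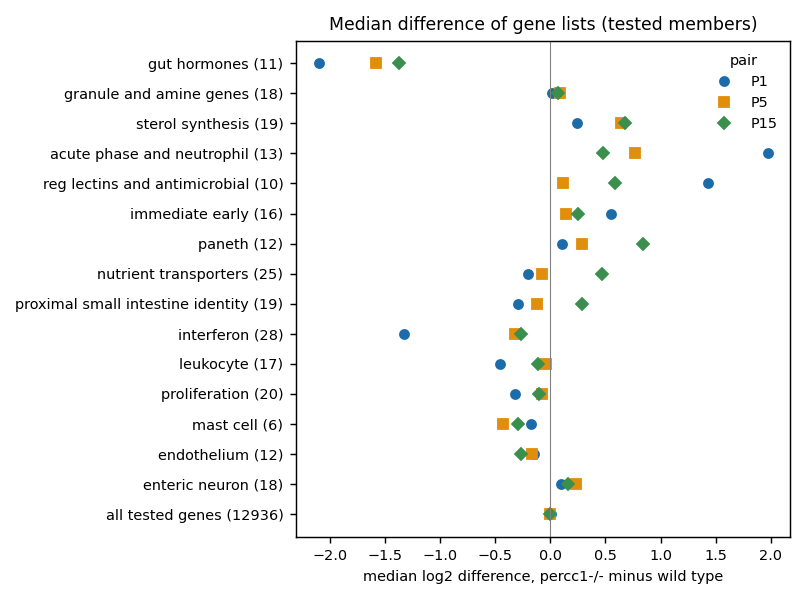
Median difference per pair on the log2(rescaled FPKM + 1) scale over the tested members of 15 gene lists and over all 12936 tested genes, with the number tested in brackets, blue circles for P1, orange squares for P5 and green diamonds for P15. The hormone medians lie between -2.10 and -1.37 at all 3 stages (-0.28 at P15 with the unnamed records over Ghrl added), the interferon and acute phase medians lie farthest from 0 at P1, and the medians over all tested genes lie at 0.00 to 0.01.

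The genotype difference was set against that of the lower small intestine, where 4 pairs (P1, P5, P10 and P20) of the same genotypes were available. The difference between the parts passed for 1 of 12726 genes (0.00786%), Gcg, and 376 had an unadjusted p under 0.05 by limma (2.95%). In the lower part Gcg stood at 12.7, 17.98, 15.3 and 14.4 FPKM in wild type and at 0, 0.366, 0.156 and 0 FPKM in percc1-/-. On the scale of that fit, the differences were -1.71, -1.59 and -1.89 in the upper part and -3.73, -3.70, -3.89 and -3.94 in the lower part. They differed by 2.09 ± 0.20 log2 units (limma adjusted p = 0.0407). Wild-type Gcg was lower in the upper part, and on this scale a decrease cannot exceed the level it starts from. With a pseudocount of 0.1 FPKM the adjusted p was 0.708, within a range of 0.0152 to 0.999 over 7 alternatives.

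Pyy stood above wild type in the upper percc1-/- libraries at P5 and P15, whereas in the lower part it stood at 14.1, 18.6, 12.9 and 12.7 FPKM in wild type and at 0, 0.301, 0.227 and 0.136 FPKM in percc1-/-. The difference between the parts was 3.56 ± 0.41 with an adjusted p of 0.0693 by limma. Cyp4a10 showed the opposite sign. In the lower part it stood at 0.745, 0.322, 0.244 and 0.0872 FPKM in wild type and at 1.001, 0.546, 0.5699 and 0.178 FPKM in percc1-/-, which is low in both genotypes, and the difference between the parts was -1.72 ± 0.20 (limma adjusted p = 0.0693). Gip was lower in percc1-/- in every pair of both parts. In the lower part it stood at 20.2, 14.2, 18.9 and 19.03 FPKM in wild type and at 0, 0.308, 0.0872 and 0 FPKM in percc1-/-, and the difference between the parts was -0.53 ± 0.30 (unadjusted p = 0.115 by limma, adjusted p = 0.9996). For Cck the difference was -1.09 ± 0.48 and for Nts 1.19 ± 0.44, both with an adjusted p of 0.9996 by limma. Oit1 differed by -0.69, 1.499, 2.82 and -0.97 units in the 4 lower pairs, with no single sign throughout.

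**Figure D5:**
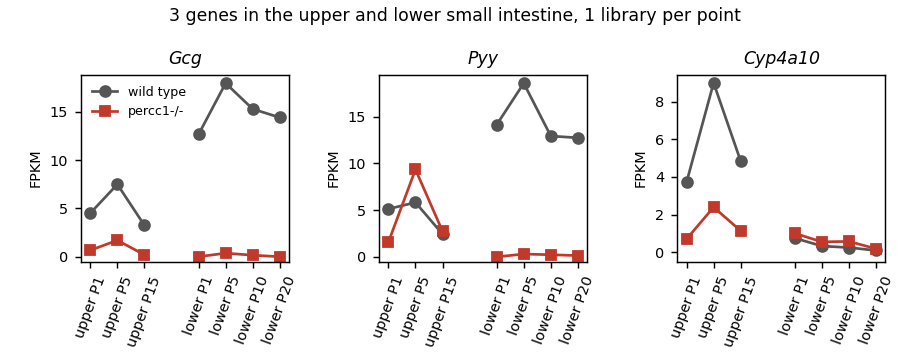
Deposited FPKM of Gcg, Pyy and Cyp4a10 in the 6 upper and 8 lower small intestine libraries, with 1 library per point, grey circles for wild type and red squares for percc1-/-, and lines joining the stages of a genotype within a part. Gcg is lower in percc1-/- in both parts from different wild-type levels, Pyy separates by genotype in the lower part, and Cyp4a10 separates in the upper part.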

How the data were processed

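RNA of 6 upper small intestine libraries was compared, with 8 lower ones for reference. The authors deposited 1 table per library with an FPKM for each gene record. TopHat2 2.0.13, SAMtools 0.1.18, Cufflinks 2.2.1 and mm9 are named in the submitters' processing notes, and an annotation version was not given in the sources used here. Counts were not used here. Fragment numbers were estimated from the bounds of each FPKM, which gives no counting interval.

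Records of one symbol were summed, and genes in records that merge symbols were left out (570 symbols missing in some upper library). Records with a symbol held 22.3% to 26.2% of the FPKM sum, and records without one entered no test. Libraries were rescaled by the median ratio over expressed genes (divisors 0.95 to 1.05). Genes averaging 1 FPKM or more were tested in R 4.3.3 with limma 3.58.1 (trended, robust prior) on log2(rescaled FPKM + 1), with stage as a block (2 residual degrees of freedom, median prior 3.21), and called at a Benjamini-Hochberg adjusted p under 0.05. Effects in upper and lower parts were compared by an interaction term. The fit was tested on simulated data.

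Deviations from the genotype means correlated within pairs at 0.187 (P1), 0.154 (P5) and 0.348 (P15), and the labels pair the libraries by stage.

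Genes were named by rule: hormones with at least 1 FPKM in any library, 12 genes each way with the largest change reached in all 3 pairs, every called gene, up to 4 per list, any tested member of the stomach, pancreas, islet and liver lists, 5 each way for the difference between parts, and neighbours of the deletion. Some genes are not reported here, though they enter the fits and counts. Other genes named were picked after seeing their values. The gene lists and their members were chosen with earlier results of these data known. Alternatives were another pseudocount, other filters, no rescaling, leaving out each pair, no block, another variance prior and larger fits.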

Additional observations from a re-analysis of the deposited data

Results flagged for a closer look

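In the main fit, the genotype effect on Gcg differed between the upper and the lower small intestine. Of 7 alternatives 2 called this difference, with limma adjusted p from 0.0152 to 0.999. Gcg was lower in percc1-/- in 3 of 3 upper and 4 of 4 lower pairs, and the effect in the upper part minus that in the lower part was 2.09 ± 0.20 on the log2 scale (limma adjusted p = 0.0407, 7 pairs). Wild-type Gcg stood at 3.26 to 7.499 FPKM in the upper and at 12.7 to 17.98 FPKM in the lower part, and the part of this starting level in the difference was not tested. In the lower percc1-/- libraries Gcg stood at 0 to 0.366 FPKM, near the floor of the scale. Groups of 3 libraries were not examined for single outlying libraries.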

How the results depend on the processing

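With 3 pairs, the calls depended on the settings. Gip kept its sign under all 12 alternatives and was called in 8, with adjusted p-values from 7.63e-08 to 0.102, and Unc50 was called in 5 of 11. Compared with 2 calls, a pseudocount of 0.1 FPKM gave 1, a minimum mean of 5 FPKM gave 1, no filter gave 0 (1112 genes at an unadjusted p under 0.05 by limma), and leaving out genes listed at 0 in a whole genotype, chosen after seeing the data, gave 1. Leaving out 1 pair gave 0 to 22 calls; the 22 came without the P15 pair and included pancreatic genes. Without the replicate block there were 3 calls, Cck among them (adjusted p = 0.00872), and fits over 14 or 32 libraries gave 3 each. Pairing by stage changed the call of no other gene of the hormone list.

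For genes over 1 log2 unit in every pair, 9 higher and 11 lower became 34 and 19 with a pseudocount of 0.1 FPKM, 4 and 5 at a minimum mean of 5 FPKM, and 25 to 45 higher and 20 to 70 lower over the 2 pairs left when 1 was omitted. In the P15 pair alone, added after seeing the data, 220 were higher and 190 lower. The hormone median of -1.72 was -2.70 with a pseudocount of 0.1 FPKM, -2.35 at a minimum mean of 5 FPKM and -0.99 with no filter; it ranged from -1.79 to -1.42 when 1 pair was left out and was -1.37 in the P15 pair alone. With unnamed records over the hormone genes added, also after seeing the data, it was -1.27, and -0.28 in the P15 pair alone. The exocrine pancreas median moved from -1.41 to 0.36 in the P15 pair alone.

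The 1 call for the difference between parts became 0 with a pseudocount of 0.1 FPKM, 0 at a minimum mean of 5 FPKM, 0 with the P1 and P5 pairs only and 2 without rescaling (Gcg and Pyy), and 0 to 17 when 1 upper pair was left out. The cause of these shifts was not tested. Of 192 genes followed, 151 kept their sign in every setting. Precision is limited by 3 pairs, by levels known only as FPKM and by the low ceiling of the values.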

Other observations

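Other tissues of the gut wall were measured in the same upper libraries, and no member of these lists passed the test. Vessel and connective tissue genes tended to stand lower in percc1-/-. Of 12 tested endothelial genes, 6 were lower in all 3 pairs, and Vwf, the von Willebrand factor gene, stood at 5.81, 6.87 and 6.84 FPKM in the wild-type libraries and 4.02, 5.16 and 5.03 FPKM in the percc1-/- libraries. Of 20 tested collagen and mesenchyme genes, 7 were lower in all 3 pairs, and the proteoglycan gene Lum stood at 11.4, 12.8 and 12.3 FPKM in the wild-type libraries and 6.64, 10.2 and 8.85 FPKM in the percc1-/- libraries. Enteric neuron genes stood slightly higher, with 11 of 18 tested members higher in all 3 pairs and median differences of 0.09, 0.23 and 0.16. Of 6 tested genes of interstitial cells of Cajal, the pacemaker cells of gut muscle, 4 were higher in all 3 pairs, and the channel gene Ano1 stood at 5.03, 5.57 and 9.44 FPKM in the wild-type libraries and 7.33, 7.101 and 12.03 FPKM in the percc1-/- libraries. The shares over all tested genes were 14.1% higher and 12.8% lower.

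Of 14 tested clock genes, 4 were higher and 3 lower in all 3 pairs, with median differences of 0.13, -0.08 and 0.15. The background for these and for the immediate early genes below was 14.1% of all tested genes higher and 12.8% lower. Nr1d2 stood at 5.14, 5.21 and 6.45 FPKM in the wild-type libraries and 3.36, 3.02 and 3.59 FPKM in the percc1-/- libraries, and Per3 at 4.22, 4.98 and 9.92 FPKM in the wild-type libraries and 1.34, 3.43 and 5.43 FPKM in the percc1-/- libraries. Arntl, the gene of the clock activator, stood at 4.47, 6.05 and 6.59 FPKM in the wild-type libraries and 8.06, 6.12 and 13.5 FPKM in the percc1-/- libraries. The labels do not give the hour of dissection. Car2, the gene of carbonic anhydrase 2, stood at 7.67, 6.55 and 6.81 FPKM in the wild-type libraries and 20.3, 19.3 and 10.1 FPKM in the percc1-/- libraries, with no overlap between the groups. Immediate early genes were higher in all 3 pairs for 7 of 16 tested members, and Fos stood at 5.797, 5.08 and 4.36 FPKM in the wild-type libraries and 14.1, 5.44 and 11.3 FPKM in the percc1-/- libraries.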
